A study of Mus musculus with 8 samples.

Results

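Genes of mouse chromosome 16 other than Bcl6 itself were followed in activated CD4 T cells with and without Bcl6. The genes are St6gal1, Bdh1, Hspbap1, Slc35a5, Plcxd2, Dubr and Cep97, 7 of the 19938 genes measured and of the 648 measured on that chromosome. They were picked from results of these same arrays as genes that differed between the genotypes on the chromosome that carries Bcl6, and each was read by 1 transcript cluster, the set of probes the array combines into a gene value. The choice used the comparison of the genotypes, so their differences between genotypes are given as a description and not as a finding. In the comparison of all genes with limma, 6 of the 7 passed an adjusted p of 0.05, which follows from the choice. St6gal1 did not pass (adjusted p = 0.126, limma). Of the 6 that passed, Slc35a5 and Plcxd2 also passed in all 16 other settings tried, and the other 4 in 5 to 7 of them. These settings refit the comparison that picked the genes on the same arrays, so passing them is no independent support.

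Naive CD4 T cells, helper T cells that have not yet met antigen, were sorted from wild-type mice (WT, n = 4) and from mice labelled T cell-specific conditional Bcl6-/- (Bcl6 cKO, n = 4). In both groups anti-CD3 and anti-CD28 antibodies, in place of antigen, activated the cells over 24 hours before RNA was taken, and the labels add the tag Tf0 without explaining it. RNA of each sample was read on 1 Affymetrix array, and values are log2 signals. The labels give neither the Cre driver, the deleted exons, the strain, the age and sex of the mice, nor whether samples came from separate animals or pools, so the spread shown is that between these samples.

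Bcl6 is a zinc finger repressor of transcription that is needed for the follicular helper fate, in which CD4 T cells help B cells in germinal centres. Genes close together on a chromosome tend to be inherited together, whatever their function, and this was not tested here. The 7 genes share no pathway: they encode a glycosyltransferase, a ketone body enzyme, an oxygenase-like protein, a sugar transporter relative, a phospholipase relative, a long non-coding RNA and a centriole protein.

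The target gene and the cell identity were looked at first. Bcl6 read 8.47, 8.33, 8.56 and 8.10 on WT arrays 1 to 4 and 9.05, 8.67, 8.83 and 8.40 on Bcl6 cKO arrays 1 to 4. The groups overlapped, and the signal on the arrays labelled as lacking Bcl6 was the higher, with a log2 difference of 0.37 (95% interval 0.08 to 0.67) that did not pass over all genes (adjusted p = 0.337, limma). With sex in the fit the difference was 0.56 (adjusted p = 0.146, limma). The labels do not say which exons were removed, and probes outside them would still read a shortened transcript, so the genotype labels cannot be checked from it. Cd4 (12.64 to 12.93) and the T cell receptor chain Cd3e (13.09 to 13.20) were high on all 8 arrays. All 10 measured CD4 T cell markers of 12 listed had means above 5.83, the highest value that Kdm5d, Uty or Eif2s3y, genes of the Y chromosome, had on arrays with high Xist, used here as the background level. The median gene signal per array was 7.57 to 7.64, so most genes read above 5.83 and being above it does not show expression. Of 9 measured B cell markers, 5 were above the background level, among them Cd79a (6.16 to 6.52) and Cd22 (6.36 to 6.61), with gene means up to 7.47. The B cell surface gene Ms4a1 (4.89 to 5.37) was not. Of 11 myeloid markers 8 were above it, with gene means up to 8.22. Above it were also 1 of 5 natural killer cell markers and 2 of 3 measured erythroid and platelet markers. The CD8 T cell list had 3 of 4 genes above background, with Gzma at background. Its summed level was 11.07 to 11.29 (log2) in WT and 10.64 to 10.98 in Bcl6 cKO, without overlap. Cd8b1 carried this (10.90 to 11.12 against 10.41 to 10.78), while Cd8a, the chain that defines CD8 T cells, read 6.93 to 7.14 and 6.90 to 7.05. The part of this list in the values below was not tested, and in bulk samples fewer cells of a type and less RNA per cell cannot be told apart. The summed levels of the other marker lists overlapped between the groups.

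In the gene order of a RefSeq table of GRCm38.p6, counted in measured genes, St6gal1 lies 6 genes before Bcl6 and the other 6 genes lie after it. Bdh1 is at position 36, Hspbap1 at 86, Slc35a5 at 160, Plcxd2 at 172, Dubr at 192 and Cep97 at 199. The last 4 thus lie close to each other in this order, and 5 of the 6 genes after Bcl6 were lower in Bcl6 cKO. The annotated starts of Bcl6 lie near bases 23981284 and 23988853 of the chromosome. Slc35a5 starts near base 45158674 and Cep97 near base 55934849, so the order does not give distance in bases.

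The RefSeq promoters (GRCm38.p6) of all 7 genes were matched, with 10 annotated starts in all. The 250 bases upstream of the start are printed for 4 of the genes that were lower in Bcl6 cKO: Slc35a5 and Plcxd2, the most alike of the 7 across arrays, and Hspbap1 and Dubr, which hold a match to a searched motif as Slc35a5 does. The windows are chr16:45158674-45158923 on the minus strand, chr16:46010414-46010663 on the minus strand, chr16:35770136-35770385 on the plus strand and chr16:50732774-50733023 on the minus strand. Each reads 5′ to 3′ toward the start, and capitals mark matches to CACGTG, the E-box bound by many helix-loop-helix factors, or to TTCNNNGAA, a loose form of the site shared by Bcl6 and STAT factors.
Slc35a5: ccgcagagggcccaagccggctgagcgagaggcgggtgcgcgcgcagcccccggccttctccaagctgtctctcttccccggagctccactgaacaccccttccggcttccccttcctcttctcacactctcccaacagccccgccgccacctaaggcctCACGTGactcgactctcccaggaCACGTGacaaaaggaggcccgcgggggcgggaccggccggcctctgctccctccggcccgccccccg
Plcxd2: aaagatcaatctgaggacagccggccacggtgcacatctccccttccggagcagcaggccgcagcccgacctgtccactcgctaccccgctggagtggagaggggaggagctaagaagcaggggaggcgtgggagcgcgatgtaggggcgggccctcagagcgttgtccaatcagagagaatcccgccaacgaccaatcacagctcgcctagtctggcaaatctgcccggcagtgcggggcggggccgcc
Hspbap1: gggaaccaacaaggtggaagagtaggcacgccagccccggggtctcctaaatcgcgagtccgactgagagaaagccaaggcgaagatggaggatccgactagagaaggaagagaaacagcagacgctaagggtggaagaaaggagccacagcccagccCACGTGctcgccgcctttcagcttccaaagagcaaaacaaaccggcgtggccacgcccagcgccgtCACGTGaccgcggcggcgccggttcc
Dubr: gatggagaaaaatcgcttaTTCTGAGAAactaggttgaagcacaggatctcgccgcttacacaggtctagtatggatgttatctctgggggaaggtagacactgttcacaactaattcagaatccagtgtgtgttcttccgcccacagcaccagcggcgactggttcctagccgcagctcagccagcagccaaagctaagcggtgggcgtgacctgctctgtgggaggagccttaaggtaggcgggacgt
The stricter Bcl6 form TTCCTNGAA was found upstream of none of the 7 genes, and upstream of 1.54% of 27025 genes. It was found, as TTCCTGGAA, 168 bases upstream of 1 of the 2 starts of Bcl6 itself. TTCNNNGAA, which includes all TTCCTNGAA sites, was found upstream of Dubr only among the 7, as TTCTGAGAA, and upstream of 8.13% of all genes. CACGTG, searched after the sequences were seen, was present in 2 copies each upstream of Hspbap1 (92 and 26 bases before the start) and Slc35a5 (90 and 67 bases before it). It was present upstream of 6.86% of all genes and of none of the other 5. All searches covered both strands of the 250 bases, and a match is a run of letters and not a site shown to be bound.

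St6gal1 encodes the Golgi enzyme that caps N-linked glycans with sialic acid and so makes ligands for the B cell lectin CD22. Its signal was 10.31, 10.36, 10.24 and 10.43 in WT and 10.15, 10.04, 10.01 and 9.79 in Bcl6 cKO. All 4 Bcl6 cKO arrays were below all WT arrays, by a gap of 0.09, and Bcl6 cKO array 4 was the lowest of the 8. The means were 10.34 ± 0.08 and 9.998 ± 0.15 (SD, n = 4 each), a log2 difference of -0.34 with a 95% interval of -0.51 to -0.17, or 1.26-fold. It had the smallest difference of the 7 and is the 1 that did not pass over all genes. The clone-named gene BC106179, next to it on the side away from Bcl6 and named after its values were seen, stood at 7.59 ± 0.28 in WT and 7.003 ± 0.19 in Bcl6 cKO and did not pass either (adjusted p = 0.131, limma).

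Bdh1, the mitochondrial dehydrogenase that interconverts the ketone bodies acetoacetate and beta-hydroxybutyrate, was the 1 gene of the 7 with a higher signal in Bcl6 cKO. It read 10.04, 10.08, 10.04 and 9.98 in WT and 10.28, 10.46, 10.43 and 10.48 in Bcl6 cKO. The WT arrays lay within 0.10 of each other, and Bcl6 cKO array 1 was nearest to them. The log2 difference was 0.38 (95% interval 0.25 to 0.50), or 1.30-fold.

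Hspbap1 encodes a JmjC-domain protein known as a partner of the small heat shock protein Hspb1. It read 9.50, 9.80, 9.57 and 9.50 in WT and 9.13, 9.18, 9.11 and 9.20 in Bcl6 cKO. The spread lay in WT, where array 2 was the highest, and the SD was 0.14 in WT against 0.04 in Bcl6 cKO. The log2 difference was -0.44 (95% interval -0.59 to -0.28), or 1.35-fold.

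Slc35a5 and Plcxd2 had the least spread of the 7. Slc35a5, a member of the nucleotide sugar transporter family of the Golgi, read 9.61, 9.61, 9.60 and 9.59 in WT and 9.20, 9.21, 9.12 and 9.12 in Bcl6 cKO. Plcxd2, which holds the catalytic X domain of phosphoinositide-specific phospholipase C, read 9.79, 9.80, 9.79 and 9.82 in WT and 9.34, 9.42, 9.31 and 9.39 in Bcl6 cKO. The gap between the groups, 0.38 for Slc35a5 and 0.37 for Plcxd2, exceeded their SDs, which were 0.0096 and 0.014 in WT and 0.049 for both in Bcl6 cKO. Their log2 differences were -0.44 (95% interval -0.54 to -0.34) and -0.43 (95% interval -0.54 to -0.33), or 1.36-fold and 1.35-fold. Their residual SDs were smaller than those of all but 2.22% and 2.40% of genes. The test that picked these genes divides by this spread, so that is part of the choice.

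Dubr is a long non-coding RNA named for binding upstream of Dppa2, a gene of early embryos and germ cells. It read 8.10, 8.41, 8.23 and 8.03 in WT and 7.74, 7.56, 7.72 and 7.63 in Bcl6 cKO. It had the largest difference of the 7 and the widest spread, with a log2 difference of -0.53 (95% interval -0.71 to -0.35), or 1.44-fold, and SDs of 0.17 and 0.08. WT array 4 was its lowest WT array, 0.29 above the highest Bcl6 cKO array.

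Cep97 encodes a centriole protein that, with its partner Ccp110, caps the centriole and holds back cilium formation. It read 9.28, 9.48, 9.30 and 9.34 in WT and 9.04, 8.99, 8.85 and 8.85 in Bcl6 cKO. WT array 2 was the highest, as for Hspbap1 and Dubr. The log2 difference was -0.42 (95% interval -0.56 to -0.27), or 1.34-fold.

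**Figure D1:**
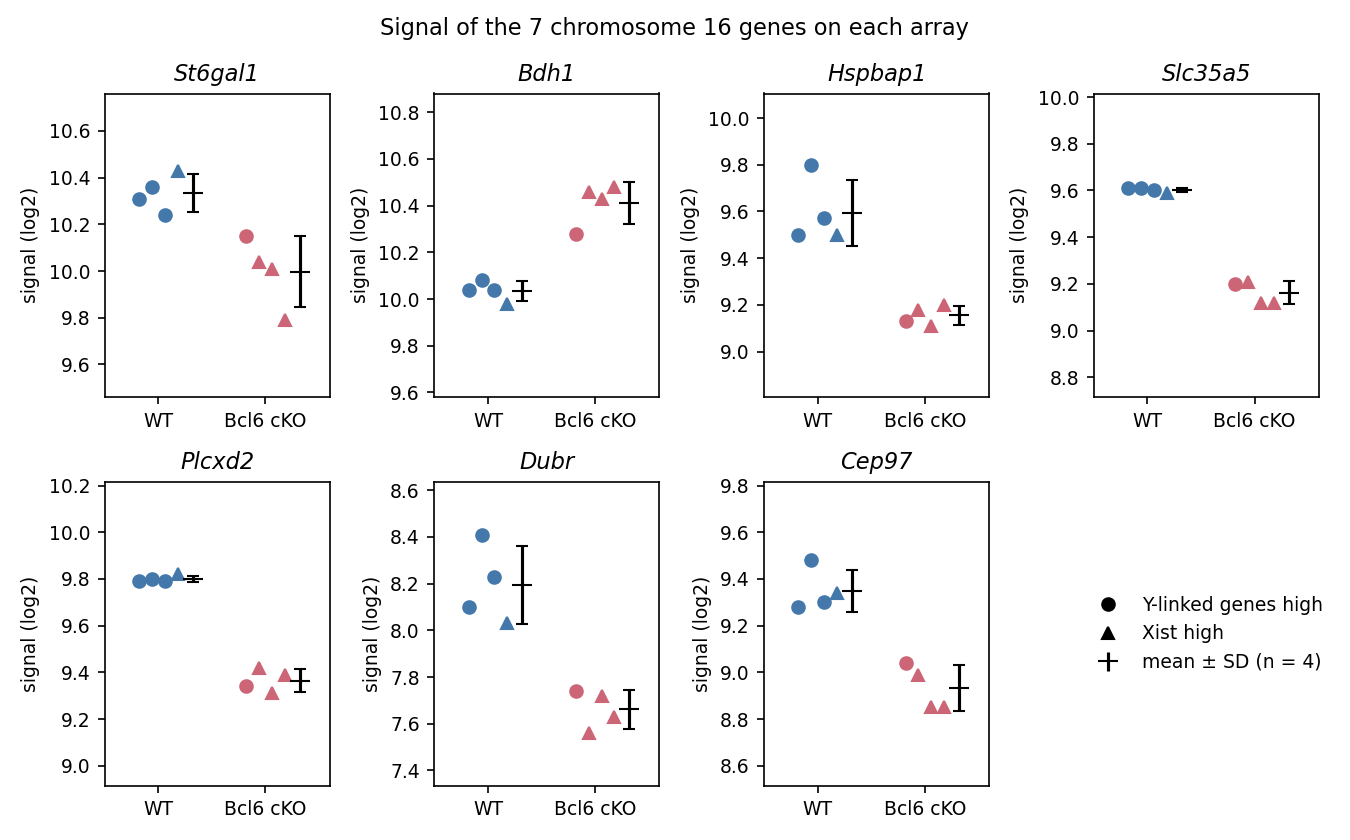
Log2 signal of each of the 7 genes on the 8 arrays, WT against Bcl6 cKO, with the mean and SD of each group (n = 4) to the right of its points. Circles are arrays with high Y-linked signal and triangles arrays with high Xist; every panel spans the same log2 range. Bdh1 is higher in Bcl6 cKO and the other 6 lower, and the points of Slc35a5 and Plcxd2 lie closest together.

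The groups did not overlap for any of the 7, against 5.97% of all genes, and 6 of the 7 passed an adjusted p of 0.05 (limma, Benjamini-Hochberg), against 0.221% of all genes. By direction, the groups were separate and lower for 6 of the 7 (3.64% of all genes) and separate and higher for Bdh1 (2.33%), and 5 passed as lower (0.115%) and Bdh1 as higher (0.105%). These counts follow from how the genes were chosen, and 4 of the 6 calls were lost in several of the other settings. Just inside the threshold on chromosome 16 were Hspbap1 and Cd200 (adjusted p = 0.0423 each, limma). Just outside were Nfkbiz, an atypical inhibitor of NF-kappaB (0.0536), and the receptor gene Cd96 (0.0561), with log2 differences of -0.42 and -0.43. Nfkbiz lies at position 197 and Cd96 at 173, between the genes described here, and their differences were of the size of those of Cep97 and Plcxd2.

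Across the 8 arrays the genes varied by different amounts around the genotype means. Averaged over the 5 lower genes that passed, the signal was 9.26, 9.42, 9.30 and 9.26 in WT and 8.89, 8.87, 8.82 and 8.84 in Bcl6 cKO. WT array 2 stood highest through Hspbap1, Dubr and Cep97, which deviated there by 0.21, 0.22 and 0.13 from their WT means, whereas Slc35a5 and Plcxd2 deviated by less than 0.01. The profiles of Slc35a5 and Plcxd2, each centred on its mean, differed by a root mean square of 0.036 over 8 arrays, the least of the 21 combinations. Among all named genes each of these was also the nearest to the other. Hspbap1 was nearest to Cep97 (0.080) and Dubr to Hspbap1 (0.093), while Cep97 was nearest to Tspan32 (0.048), a gene of chromosome 7. Bdh1 was nearest to the DNA methyltransferase gene Dnmt3b (0.049), on chromosome 2, and St6gal1 to the lymphotoxin gene Ltb (0.042), on chromosome 17. Nearness here includes the genotype difference that picked the genes.

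The stretch from St6gal1 to Cep97 takes its ends from the chosen genes, so shares inside and outside it are not a fair contrast. It holds 198 other measured genes besides Bcl6. Of these 105 were above and 88 below WT, with a median log2 difference of 0.0075. The median size of the difference was 0.060, against 0.055 over all genes. Past an adjusted p of 0.05 (limma) were 4 of the 198 (2.02%, against 0.221% of all genes), and all 4 were higher. They were Lpp, the gene next to Bcl6 (log2 difference 0.99), the galactosyltransferase gene B4galt4 (1.25), Cd200 (0.53) and Ift57 (0.68). This count was 7 with trend and robust variance options, with array weights, and without Bcl6 cKO array 1. It was 6 with a filter on low signal and 5 with the mean of clusters. Of the genes added there, Cd96 (-0.43), Nfkbiz (-0.42) and Zbtb20 (-0.605) were lower in the first fit, and Arhgap31 (0.39) and Atp13a3 (0.055) higher. In that first fit the stretch, with the 7 that were chosen as changed, held 5 genes that were higher and 5 that were lower past the threshold. Groups did not overlap for 16 of the 198 (8.08%, against 5.97% of all genes), and 21 had an unadjusted p under 0.05 (10.6%, against 10.9%). Outside the stretch 1 of 442 genes of the chromosome passed (0.226%), Nlrc3, at position -225, that is 225 measured genes before Bcl6, with a log2 difference of -0.48.

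**Figure D2:**
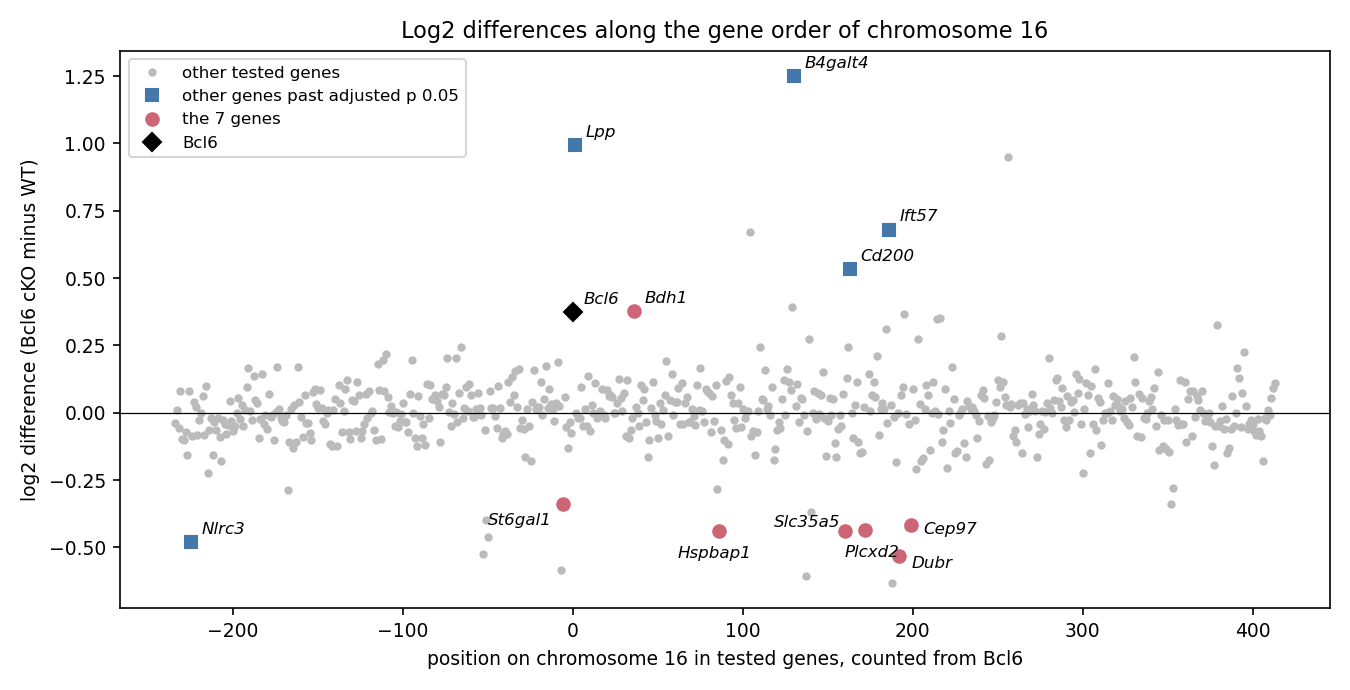
Log2 difference between Bcl6 cKO and WT for the 648 measured genes of chromosome 16, ordered by start and counted from Bcl6 at 0. Circles are the 7 genes, squares the other 5 genes past an adjusted p of 0.05, the diamond is Bcl6 and dots are the remaining genes. Most dots lie near 0 at all positions, with the circles at 36, 86 and 160 to 199 and St6gal1 at -6.

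Counted in steps of 50 measured genes from Bcl6 onward, genes whose groups did not overlap, leaving out the 7, numbered 2 of 49, 1 of 49, 7 of 50 and 6 of 46 in the first 4 steps. In the next 4 steps they numbered 4, 3, 2 and 3 of 50. The third and the fourth step stood highest, at 14.0% and 13.0%, against 5.97% of all genes. The fourth also holds Slc35a5, Plcxd2, Dubr and Cep97. In the steps from position -200 up to Bcl6 the shares were 4.0%, 6.0%, 4.0% and 6.1%. These shares were not tested, since genes of 1 array vary together.

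The named genes nearest to the 7 were, like most measured genes, mostly close to WT. This leaves out clones and predicted genes, among them BC106179, which lies directly beside St6gal1 and differed by -0.58 with groups that did not overlap, a larger difference than that of any of the 7. The nearest named measured gene on each side gave 14 different genes, of which none passed over all genes (limma, 2 at an unadjusted p under 0.05). Of all genes 0.221% passed. With trend and robust variance options, or with array weights, 1 of the 14 passed. The median size of their log2 differences was 0.061, near the 0.055 over all genes, and 12 of the 14 differed by less than 0.2. Some read near or below the background level of 5.83, where a difference could hardly show. Adipoq and Ccdc80 had WT means of 5.52 and 4.94, and Apod and Ccdc54 of 6.05. Phldb2 (6.495) and Rtp1 (6.695) were also under the array medians of 7.57 to 7.64, while the others read higher. The exceptions among the 14 were Cd96 beside Plcxd2 (11.02 ± 0.06 in WT, 10.59 ± 0.16 in Bcl6 cKO) and Slc49a4 beside Hspbap1 (9.45 ± 0.25 and 9.17 ± 0.07, adjusted p = 0.36, limma). Cd96 read 10.94 to 11.09 in WT and 10.43 to 10.79 in Bcl6 cKO, so its groups did not overlap. On the other side of Plcxd2, the log2 difference of Phldb2, whose signal was low, was 0.02. Both neighbours of Bdh1 were near 0, with -0.02 for Apod, whose signal was near background, and 0.02 for Dlg1. Beside Slc35a5, the autophagy gene Atg3 differed by 0.13 (95% interval -0.02 to 0.27), in the opposite direction. Beside Cep97, the ribosomal protein gene Rpl24 differed by 0.09 and Nxpe3 by -0.04, and beside Dubr the ubiquitin ligase gene Cblb differed by 0.10.

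**Figure D3:**
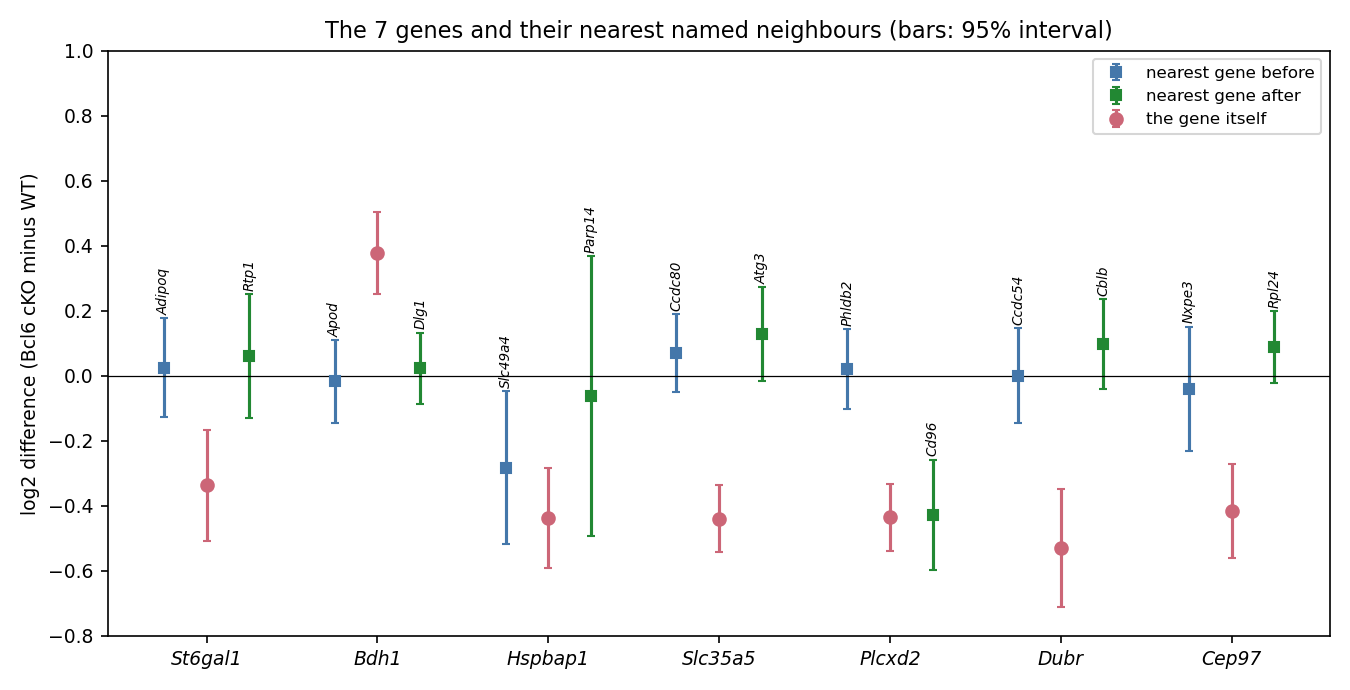
Log2 difference between Bcl6 cKO and WT with its 95% interval for the 7 genes (circles) and the nearest named measured gene before and after each on chromosome 16 (squares). Cd96 lies at the level of Plcxd2 beside it, and 12 of the 14 neighbours lie within 0.2 of 0.

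For partners and close relatives of the 7 genes, chosen by their function, the groups overlapped. St6gal2, the other enzyme of the same linkage, read 5.08 to 5.30 in WT and 4.98 to 5.27 in Bcl6 cKO, at background. Hspb1 differed by -0.04 (95% interval -0.17 to 0.09), Bdh2 by 0.02 (95% interval -0.21 to 0.26) and Plcxd1 by 0.01 (95% interval -0.18 to 0.19). Ccp110, the partner of Cep97, read 8.85 to 9.13 in WT and 9.03 to 9.10 in Bcl6 cKO, with a difference of 0.09 (95% interval -0.06 to 0.24). Dppa2, beside which Dubr is named, read 5.41 to 5.59 and 5.55 to 5.66, also at background. Plcxd3 differed by -0.03. None of these partners and relatives passed over all genes (limma, also none at an unadjusted p under 0.05). Of all genes 0.221% passed, 10.9% had an unadjusted p under 0.05 and 5.97% had groups that did not overlap. Among so few genes, none is near those shares.

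Lists of genes that share a function with one of the 7 held 132 measured genes, of which none passed over all genes (limma, and none with trend and robust options; 23 had an unadjusted p under 0.05, or 17.4% against 10.9% of all genes). Without Bcl6 cKO array 1, 1 of them passed, St8sia6. Of 30 genes of sialic acid synthesis, transfer and removal, 11 were above and 19 below WT, with a median log2 difference of -0.044 against 0.0025 over all genes. St3gal2, a sialyltransferase, had the smallest p among them, at 9.06 ± 0.05 in WT and 8.84 ± 0.03 in Bcl6 cKO (adjusted p = 0.126, limma), and St8sia6 differed by -0.43 (adjusted p = 0.174, limma). Of 13 ketone body genes 9 were above WT (median 0.022), led by the monocarboxylate transporter genes Slc16a6 (0.33) and Slc16a1 (0.20). Of 12 genes of small JmjC proteins and relatives 7 were above WT (median 0.035), with Kdm2a at -0.12 and Riox1 at 0.18.

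Of 23 other genes of the SLC35 transporter family, 11 were above and 10 below WT, with a median log2 difference of 0. Slc35f2 differed by 0.28 and Slc35f6 by -0.18, neither past the threshold. Of 17 phospholipase C genes 11 were above WT (median 0.022). Plcg1, which the T cell receptor uses to start calcium signalling, read 10.84, 10.78, 10.84 and 10.81 in WT and 10.69, 10.58, 10.60 and 10.55 in Bcl6 cKO. Its groups did not overlap, with a difference of -0.21 that did not pass over all genes (adjusted p = 0.131, limma), and Plcl2 differed by -0.12. Of 29 centriole and cilium cap genes 20 were above WT (median 0.070), opposite to Cep97. Cep83, of the distal appendages, differed by 0.21 and Cep120 by -0.18. Of 9 measured genes of the long non-coding RNA list, which also holds Dppa2 and Dppa4, 7 were above WT (median 0.065), with Snhg5 at 0.23 and Pvt1 at 0.20.

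The sex of the mice, read from Xist and the Y-linked genes, was uneven: Y-linked genes were high on WT arrays 1, 2 and 3 and on Bcl6 cKO array 1. A sex term was fitted beside genotype. The choice of genes did not use sex itself, but it favoured genes with little spread within a genotype. Each genotype holds arrays of both sexes, so small sex differences in either genotype are partly a result of the choice. None of the 7 passed for sex (limma, adjusted p = 0.626 for Dubr to 0.916 for St6gal1), where 6 of all genes did (0.0301%). The sex differences ran from -0.16 for Dubr (95% interval -0.35 to 0.03) to 0.05 for Bdh1 (95% interval -0.09 to 0.20). With sex in the fit the genotype differences ran from -0.45 for Dubr and Plcxd2 to 0.35 for Bdh1. Only Slc35a5 and Plcxd2 of the 7 then passed (adjusted p = 0.0364 and 0.0274, limma).

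Among the 4 arrays with high Y-linked genes the genotype difference of St6gal1 was -0.15 and among the 4 with high Xist -0.48. For Bdh1 these were 0.23 and 0.48. For Plcxd2 they were -0.45 and -0.45, and for Slc35a5 -0.41 and -0.44. For Hspbap1 the values were -0.49 and -0.34, for Dubr -0.51 and -0.39 and for Cep97 -0.31 and -0.44. All 7 kept their sign in both sets, which was fixed in advance, since their groups did not overlap. Each set puts 3 arrays of a genotype against 1, whose own spread is not measured. WT array 4, the lone WT array with high Xist, had the lowest estimated array weight of the 8 (0.367). The difference between the sexes itself did not pass for any of the 7 (limma interaction, adjusted p = 0.393 for Bdh1 to 0.986 for Plcxd2), where 1 of all genes did (0.00502%). For Bdh1 its estimate was 0.25 with a 95% interval of 0.03 to 0.47 before adjustment, and for St6gal1 -0.33 (-0.68 to 0.02).

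Leaving out each array in turn kept all 7 differences within a narrow range. That of Slc35a5 ran from -0.46 to -0.43, that of Plcxd2 from -0.45 to -0.42 and that of Dubr from -0.58 to -0.46. St6gal1 ran from -0.39 to -0.27. The count past an adjusted p of 0.05 was less steady: without Bcl6 cKO array 1 it was 5 of the 7, and without any other array it was 2. Those 2 were Slc35a5 and Plcxd2 each time, and both passed in all 16 other settings tried. Every setting refits the comparison that picked the genes, which favoured genes with little spread, so this too is part of the choice. Bdh1 passed in 7 of the 16, Cep97 in 6, Hspbap1 and Dubr in 5 and St6gal1 in none.

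**Figure D4:**
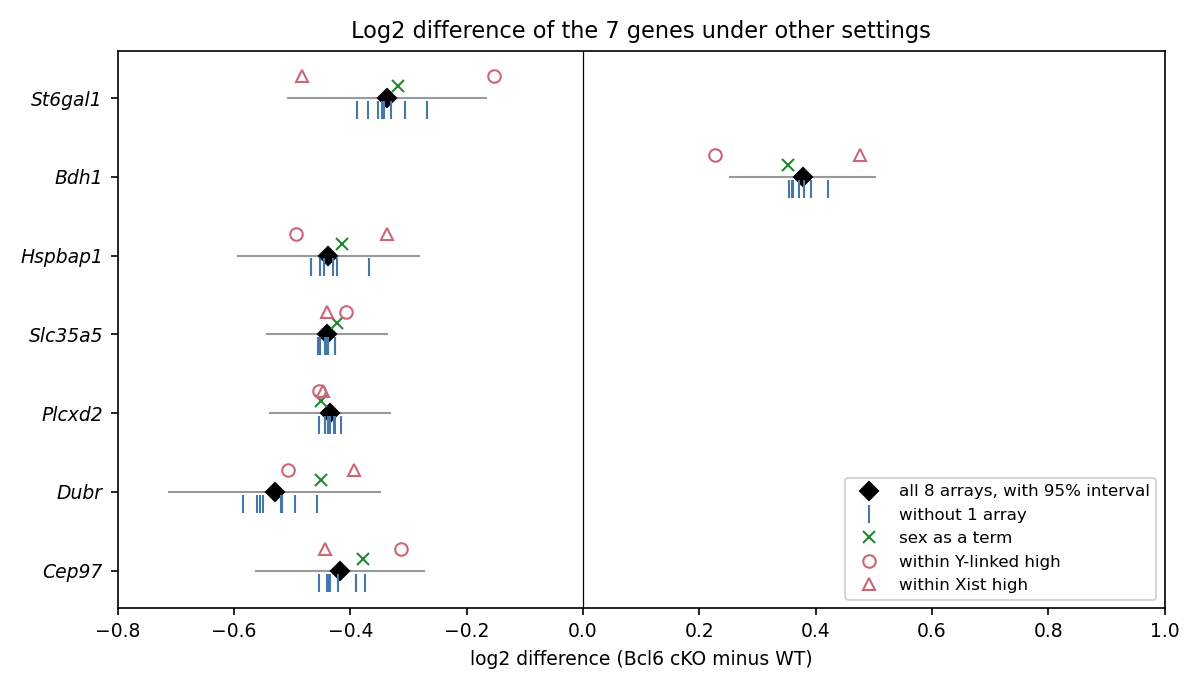
Log2 difference between Bcl6 cKO and WT of the 7 genes with all 8 arrays (diamond, line for the 95% interval), without each array in turn (ticks), with sex as a term (crosses) and within the arrays of each sex (open symbols). No symbol crosses 0, which was fixed in advance by groups that do not overlap. The open symbols lie farther from the diamonds for St6gal1 (-0.15 and -0.48) than for Plcxd2 (-0.45 and -0.45).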

How the data were processed

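The authors deposited log2 signals, 35556 transcript clusters on each of 8 arrays, made from 100 ng of total RNA per the labels' protocols. RMA and Partek are named in the submitters' processing notes, without version or setting. RMA corrects background, equalizes the arrays and combines probes, which shrinks differences of dim genes. Clusters with 1 gene symbol (21789) were kept, and per gene the one with the highest mean, giving 19938 genes. The Entrez ID gave each gene its place in RefSeq's GRCm38.p6 annotation (21694 clusters matched). Arrays carry no read depth, so their number limits precision.

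The genotypes were compared by limma 3.58.1 under R 4.3.3 (lmFit, eBayes, no covariate, no filter), with p-values adjusted by Benjamini-Hochberg over all genes and intervals from the same fit. The steps were tested on simulated data. The 7 genes and all lists (7 by function, 7 of cell markers) were chosen with earlier results of these data known. Named besides the 7 were Bcl6, other chromosome 16 genes past the threshold and the 2 nearest outside it, the nearest named gene on each side, for each function list the 2 genes with the smallest p, and for each of the 7 the gene with the nearest profile. Predicted models and clones are only counted, except BC106179 and Gm5486. The relatives and partners, and the genes of the stretch that passed only in other settings, were added later. Alternatives covered variance moderation, array weights, scaling, a filter at the 30th percentile of mean signal, the mean of clusters, a replicate block, sex and leaving out each array.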

Additional observations from a re-analysis of the deposited data

How the results depend on the processing

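No difference of the 7 genes changed sign under any of the alternatives. For fits that only drop, split or weight arrays this was fixed in advance, since the groups did not overlap. The differences of Hspbap1, Slc35a5 and Plcxd2 moved by less than 1 SD throughout. Among arrays with high Y-linked genes the differences of St6gal1, Bdh1 and Cep97 were -0.15, 0.23 and -0.31. Within the arrays with high Xist those of St6gal1, Bdh1 and Dubr were -0.48, 0.48 and -0.39. Without 1 array, St6gal1 ran from -0.39 to -0.27, Bdh1 from 0.36 to 0.42, Hspbap1 from -0.47 to -0.37, Slc35a5 from -0.46 to -0.43, Plcxd2 from -0.45 to -0.42, Dubr from -0.58 to -0.46 and Cep97 from -0.45 to -0.37.

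Over all genes 44 passed. The count was 91 with trend and robust options, 80 with array weights, 67 with the filter on low signal (fewer genes tested), 10 with sex as a term and 11 to 139 without 1 array (11, 18, 18 and 12 without WT arrays 1 to 4, and 139, 22, 11 and 11 without Bcl6 cKO arrays 1 to 4). Of the 7 genes, 6 passed at first, 3 with median centring, 2 with sex as a term and 2 to 5 without 1 array. Of the other genes of the stretch 4 passed, and 7 with trend and robust options and with array weights, with Arhgap31, Cd96 and Nfkbiz added, and 3 to 7 without 1 array. Of the related genes none passed, and 0 to 1 without 1 array (St8sia6 without Bcl6 cKO array 1). Bcl6 cKO array 1 was the only Bcl6 cKO array with high Y-linked genes, and WT array 4 the only WT array with high Xist. The cause of these changes was not tested.

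With the replicate number as a block 35 genes passed and 2 of the 7, Slc35a5 and Plcxd2, with 4 other genes of the stretch (Lpp, B4galt4, Ift57 and the predicted gene Gm5486, and not Cd200). Without the block Gm5486 differed by -0.63 and did not pass. Deviations of same-numbered arrays correlated by 0.073, 0.206, 0.203 and 0.205 across genes. Arrays 2, 3 and 4 correlated best with their own number, a hint of pairing from the data that the labels do not state, and the arrays numbered 1 did not, so the fit without the block was kept. With TTCNNNGAA in place of TTCCTNGAA 1 promoter of the 7 genes matched in place of 0. Signals of all 7 genes lay above the background level of 5.83, though Dubr in Bcl6 cKO (7.56 to 7.74) was near the array medians (7.57 to 7.64).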
